A study of Mus musculus with 7 samples.

Results

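Small leucine-rich proteoglycans are secreted matrix proteins with a core of leucine-rich repeats, most of which carry chondroitin, dermatan or keratan sulfate chains. The 10 genes described here are Dcn, Bgn, Aspn, Fmod, Lum, Kera, Prelp, Omd, Ogn and Epyc, measured by 21 of the 45037 probe sets compared. All probe sets with 1 of these symbols as their only platform symbol were taken, and none was dropped for a low value. The family was chosen by earlier sight of lower Fmod (fibromodulin) values in knockout lenses, so the Fmod difference between the groups is given as a description without a test. The other 9 genes were taken for their family membership, but the group differences of these lenses were already known when the set was drawn up.

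Lens epithelium was taken from SPARC-null mice (KO) and wild-type mice (WT) at an age of 28 days, all on a C57Bl/6 background and from 1 litter, and the comparison asks which transcripts differ when SPARC is absent. SPARC is a collagen-binding matricellular protein that cells of the lens epithelium secrete. The null allele is the only genetic difference that the labels name, and how it was made was not recorded in them. KO lenses were 1L and 1R (both eyes of animal 1), 4L and 7L, and WT lenses were 2L, 5L and 6L, where the number is the animal and the letter the eye. Animal 7 was male and the other 5 animals female. Each lens gave 1 Affymetrix array after laser capture of stained cryosections and 2 cycles of RNA amplification. The lenses of animal 1 were averaged on the log2 scale, which left n = 3 animals in each group.

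In connective tissue these proteoglycans bind fibrillar collagen and set the diameter and spacing of its fibrils. Lumican and keratocan carry the keratan sulfate of the corneal stroma, on which corneal transparency depends. Decorin and biglycan also bind growth factors of the TGF-beta family. The lens itself is enclosed by a basement membrane, the capsule, and not by a fibrillar stroma, whereas cornea, sclera and ciliary body next to it hold fibrillar collagen. In bulk RNA from captured tissue, fewer cells of a type and less RNA per cell cannot be told apart.

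The labels were checked against Sparc, whose brightest probe set lay between 8.14 and 70.5 in KO lenses and between 27371 and 49972 in WT lenses. Lens genes were high in all 7 lenses, with signals of Cryaa, an alpha crystallin, at 19271 to 38201 and of Pax6, the eye transcription factor, at 3817 to 7749. The epithelial factor Foxe3 was weak, at 11.5 to 118, with a log2 difference of -1.02 (SE 0.46, unadjusted p = 0.0507, limma adjusted p = 0.99988). Of the 10 listed lens genes, 7 had lower and 3 higher KO means (median -0.14), and 0 passed in limma. Sfrp2, a secreted Wnt modulator, had signals of 92.5 (1L), 139 (1R), 66.9 (4L) and 134 (7L) in KO and 104 (2L), 429 (5L) and 225 (6L) in WT lenses, with 2L among the KO lenses. Its difference was -1.10 (SE 0.49, unadjusted p = 0.0490, limma adjusted p = 0.99988). Mip, a membrane channel of lens fibre cells, was at 14535 to 28472, so RNA of fibre cells was present as well. All arrays shared a trimmed mean signal of 500.003 to 500.004. The highest signal of any bacterial control probe set, 45.5, served as the gauge of background. Lens 2L stood apart in RNA measures, with a ratio of 3' to 5' Gapdh signal of 3.75 against 9.06 to 15.9 in the other 6 lenses. For beta-actin the ratio was 5.89 in 2L against 13.8 to 23.8. A lower ratio means less bias towards the 3' end, so it does not mark 2L as the poorer array. The highest signal of 2L was 28328 against 42153 to 53056. Because 2L differed from the rest, the Fmod and Kera differences and the counts over the 10 genes are also given without it. Across the whole table limma called 3 of 45037 probe sets at an adjusted p under 0.05 (0.00666%), and 2 of them were Sparc.

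The 10 genes lie in 3 chromosome clusters plus Bgn, which sits alone on the X chromosome. By the gene order of the RefSeq table for GRCm38.p6, Prelp and Fmod are next to each other on chromosome 1. Dcn, Lum, Kera and Epyc follow each other on chromosome 10, and Aspn, Omd and Ogn on chromosome 13, in each case with 0 other protein-coding genes between them. Sequences of 250 bases before an annotated start were printed for 2 members, Fmod and Ogn. Fmod had lower KO means at all 6 of its probe sets, though KO and WT lenses overlapped at 5 of them. For Ogn the KO and WT means at the brightest probe set differed least of the 10 genes, while its other probe set differed by -0.16. They come from RefSeq and read 5′ to 3′ on the + strand of GRCm38.p6, at chr1:134037004-134037253 for Fmod and chr13:49607765-49608014 for Ogn. Capitals mark matches on either strand to the TATA box core (TATAAA), the AP-1 site (TGANTCA), the GC box (GGGCGG) and the CCAAT box.
Fmod: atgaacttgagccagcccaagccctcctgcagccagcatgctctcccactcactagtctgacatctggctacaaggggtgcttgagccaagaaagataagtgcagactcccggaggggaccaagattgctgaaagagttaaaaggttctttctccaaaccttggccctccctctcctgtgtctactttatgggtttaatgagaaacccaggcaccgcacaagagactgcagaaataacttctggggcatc
Ogn: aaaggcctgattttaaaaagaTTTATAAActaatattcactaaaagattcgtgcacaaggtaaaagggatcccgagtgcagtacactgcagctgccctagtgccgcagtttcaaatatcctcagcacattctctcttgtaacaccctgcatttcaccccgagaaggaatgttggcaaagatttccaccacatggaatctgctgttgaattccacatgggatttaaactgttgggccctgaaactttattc

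The Fmod window held none of the 4 motifs. The Ogn window held TATAAA on both strands in 1 overlapping stretch, 222 to 229 bases before the start. Among 32851 windows of the same length in the table, 12.4% held TATAAA, 6.75% TGANTCA, 32.7% GGGCGG and 33.8% CCAAT. These matches describe letters in the window and were not tied to the arrays.

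Fibromodulin is a keratan sulfate proteoglycan that binds type I collagen and delays fibril growth. It was measured by 6 probe sets, all above the background gauge in all 7 lenses. At 1415939_at, the 1 Fmod probe set without an x in its suffix, signals were 1232 (1L), 889 (1R), 1024 (4L) and 1074 (7L) in KO and 2105 (2L), 3547 (5L) and 1764 (6L) in WT lenses. No KO lens reached the lowest WT lens there. The mean log2 level was 10.06 for the KO animals and 11.20 ± 0.51 for the WT animals (SD, n = 3), which is a difference of -1.14 (SE 0.26), or 2.20-fold. The KO animals lay within 0.0045 (SD) of each other only because 1L (10.30) and 1R (9.82) averaged to a value between them.

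The other 5 Fmod probe sets carry the suffix x_at, with which Affymetrix marks sets whose probes can match more than 1 transcript. At 1456084_x_at, the brightest, signals were 5346 (1L), 5075 (1R), 5820 (4L) and 4124 (7L) in KO and 4041 (2L), 11254 (5L) and 8336 (6L) in WT lenses. Lens 2L was the lowest of all 7 there, while 5L and 6L lay above all KO lenses. The log2 levels were 12.29 ± 0.22 in KO and 12.78 ± 0.68 in WT (SD, n = 3), a difference of -0.49 (SE 0.31), smaller than the spread among WT animals. At 1437324_x_at the signals ran from 1461 to 1822 in KO and were 1718 (2L), 5566 (5L) and 3283 (6L) in WT. At 1438966_x_at they ran from 321 to 436 in KO and were 249 (2L), 1076 (5L) and 515 (6L) in WT.

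**Figure D1:**
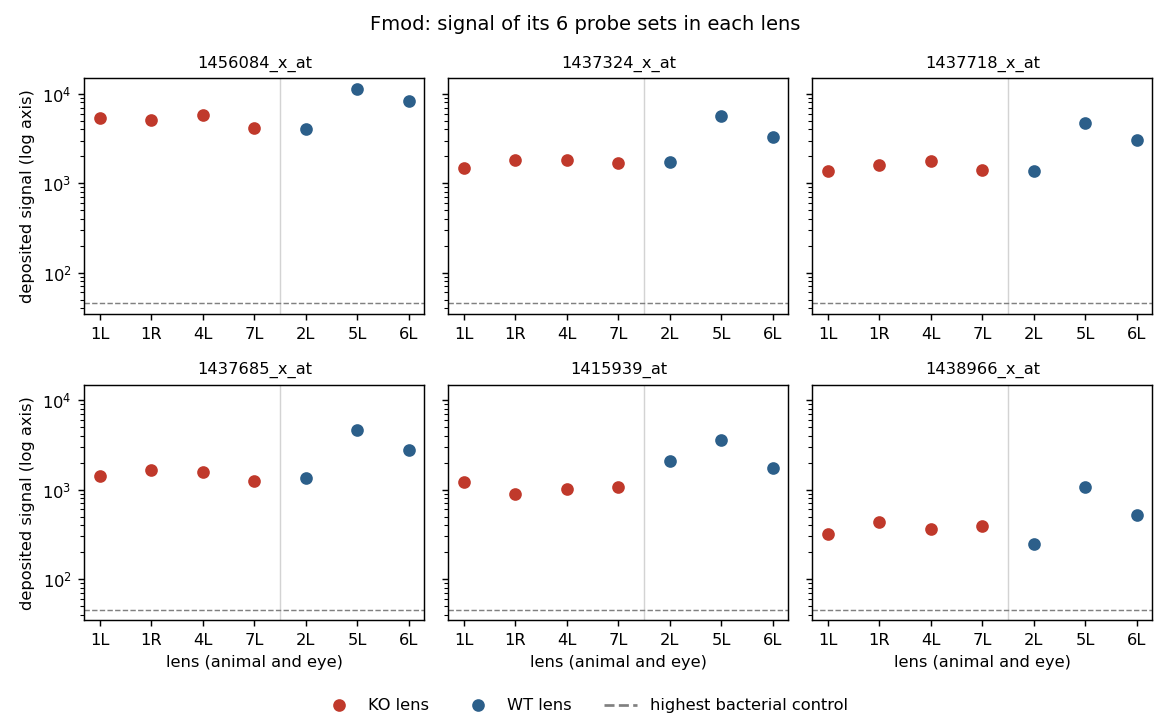
Deposited signal (log axis) of the 6 Fmod probe sets in each lens, KO in red and WT in blue, with the highest bacterial control (45.5) as a dashed line. Lens 5L is highest in every panel, 5L and 6L lie above all KO lenses, and 2L lies above all KO lenses only at 1415939_at.

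The 6 probe sets thus separated the groups to different degrees. Lenses 5L and 6L exceeded all KO lenses at 6 of 6 probe sets, and 5L was the highest of the 7 lenses at all of them. Lens 2L fell below the highest KO lens at 5 of 6. It fell below every KO lens at 2 of 6 by deposited signal and at 3 of 6 by normalized level. The log2 differences of the 5 x_at sets ran from -0.84 to -0.46. Without WT animal 2 the 6 differences ran from -1.30 to -0.89. Without WT animal 5 they ran from -0.85 to 0.06, and the sign turned at 1438966_x_at. Of the 21 probe sets of the family, 1415939_at was the only one with all KO lenses below all WT lenses, and 0 had them all above. Over all 45037 probe sets, 1.97% had all KO lenses below all WT lenses. Since Fmod chose the family, nothing is read from this count.

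Keratocan, a keratan sulfate proteoglycan typical of corneal stroma, had the widest difference in means of the other 9 genes at their brightest probe sets. The signals of Kera were 83.9 (1L), 212 (1R), 165 (4L) and 891 (7L) in KO and 521 (2L), 1064 (5L) and 689 (6L) in WT lenses. Lenses 1L, 1R and 4L lay below all WT lenses, and 7L lay among them. Log2 levels were 8.17 ± 1.41 (KO) and 9.53 ± 0.56 (WT; SD, n = 3), a difference of -1.36 (SE 0.60), which had an unadjusted p of 0.0486 and did not pass (limma adjusted p = 0.99988). The 2 eyes of animal 1 differed by 1.18 on the log2 scale. The difference was -2.17 without KO animal 7, -0.88 without KO animal 1, and -1.63 without WT animal 2.

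Decorin, a dermatan sulfate proteoglycan that binds collagen and TGF-beta, followed a similar order of lenses. At the brighter Dcn probe set the signals were 3234 (1L), 4383 (1R), 4652 (4L) and 10737 (7L) in KO and 5598 (2L), 12741 (5L) and 9272 (6L) in WT lenses. As for Kera, 1L, 1R and 4L lay below all WT lenses and 7L among them. The log2 difference was -0.54 (SE 0.40, limma adjusted p = 0.99988), and it ran from -1.05 without KO animal 7 to -0.23 without KO animal 1. It was -0.31 without WT animal 5, -0.35 without KO animal 4, -0.96 with array weights and -0.31 as the mean of both probe sets. The weaker Dcn probe set lay near background, between 28.5 and 96.7 (KO) and between 44.2 and 81.7 (WT), with a difference of -0.08 (SE 0.44).

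Lumican, the partner of keratocan in the corneal stroma and its neighbour on chromosome 10, had higher KO means. The signals of Lum were 455 (1L), 1254 (1R), 499 (4L) and 2606 (7L) in KO and 478 (2L), 939 (5L) and 701 (6L) in WT lenses. KO lenses lay both below and above the WT range, and 7L was the highest of all. The log2 levels were 9.99 ± 1.20 (KO) and 9.44 ± 0.55 (WT; SD, n = 3), with a difference of 0.55 (SE 0.53, limma adjusted p = 0.99988). It turned to -0.13 without KO animal 7.

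Epiphycan, a dermatan sulfate proteoglycan of growth cartilage, is the remaining gene of that cluster. The signals of Epyc were weak, at 57.3 (1L), 122 (1R), 23.2 (4L) and 162 (7L) in KO and 124 (2L), 93.7 (5L) and 75.0 (6L) in WT lenses. Lens 4L was at background, and the groups overlapped. The log2 difference was -0.42 (SE 0.54, limma adjusted p = 0.99988) and 0.17 without KO animal 4. In the chromosome 10 cluster, 7L was the highest KO lens for Dcn, Lum, Kera and Epyc alike, whereas the signs of the 4 differences were not all the same.

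**Figure D2:**
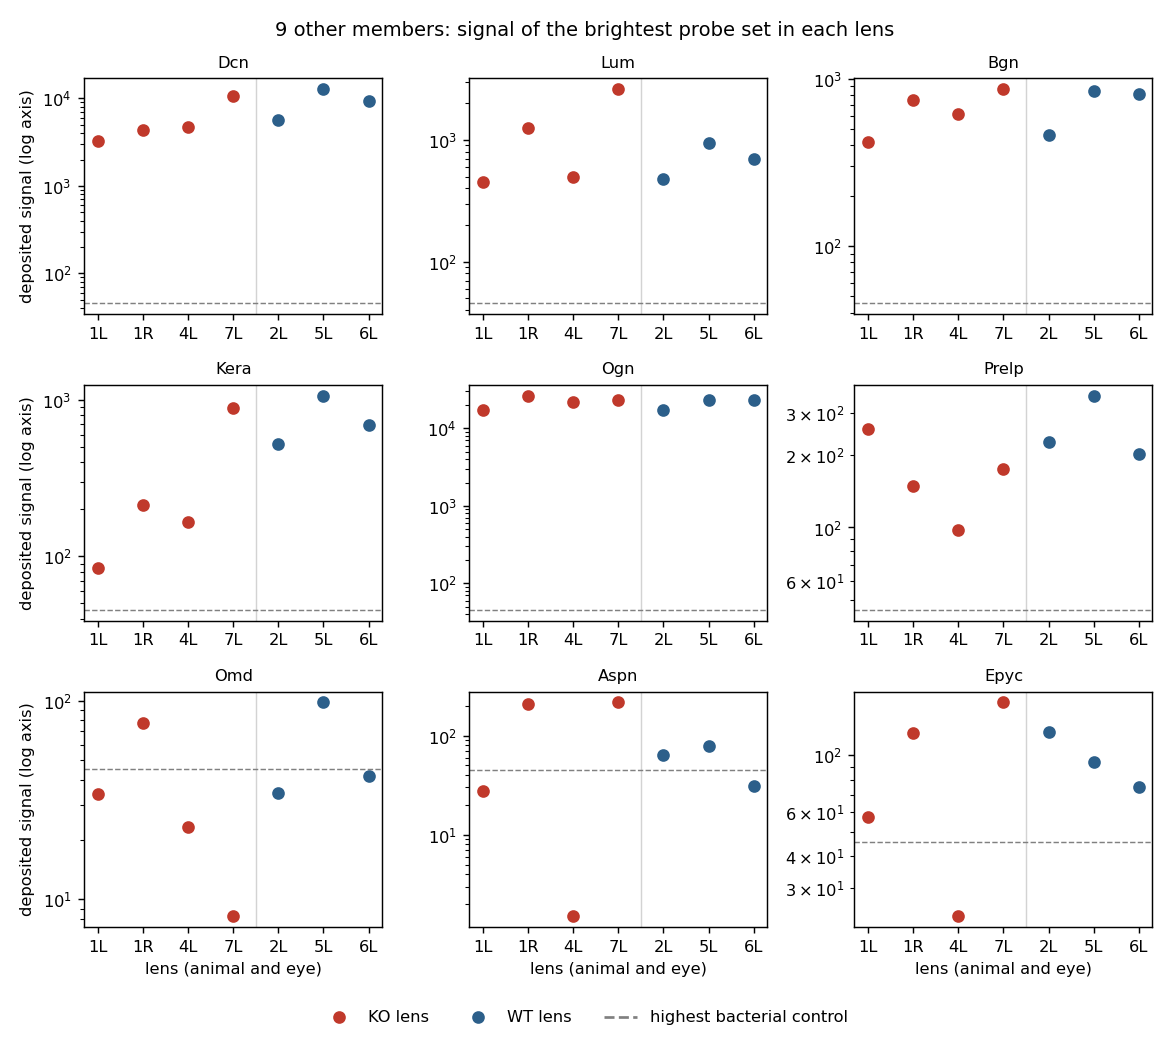
Deposited signal (log axis) of the brightest probe set of the 9 other genes in each lens, KO in red and WT in blue, with the highest bacterial control (45.5) as a dashed line. For Dcn and Kera, 1L, 1R and 4L lie below all WT lenses and 7L lies among them, while Ogn varies little and Omd, Aspn and Epyc reach background in some lenses.

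Of the other genes of the fibromodulin subfamily, PRELP is a heparin-binding protein that anchors basement membranes to connective tissue. At its brighter probe set the signals of Prelp were 255 (1L), 149 (1R), 97.7 (4L) and 175 (7L) in KO and 227 (2L), 352 (5L) and 202 (6L) in WT lenses. Lenses 1R, 4L and 7L lay below all WT lenses and 1L above 2L and 6L. The log2 levels were 7.34 ± 0.45 (KO) and 8.10 ± 0.43 (WT; SD, n = 3), a difference of -0.76 (SE 0.36) with an unadjusted p of 0.0601 (limma adjusted p = 0.99988). This probe set carries the suffix s_at, used for probes shared by several transcripts. The other Prelp probe set was at or under the background gauge in all 7 lenses, at 2.47 to 15.4.

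Osteomodulin, also called osteoadherin, is a keratan sulfate proteoglycan of mineralised tissue. The signals of Omd were 34.0 (1L), 76.9 (1R), 23.3 (4L) and 8.21 (7L) in KO and 34.4 (2L), 98.1 (5L) and 41.6 (6L) in WT lenses. Only 1R and 5L exceeded the background gauge, so the log2 difference of -0.89 (SE 0.48, limma adjusted p = 0.99988) is between values mostly at background.

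Osteoglycin, also called mimecan, is found in cornea and other connective tissues. At its brighter probe set the signals of Ogn were 17520 (1L), 26417 (1R), 21916 (4L) and 23581 (7L) in KO and 17412 (2L), 23096 (5L) and 23533 (6L) in WT lenses. The groups overlapped over most of their range. The log2 levels were 14.43 ± 0.25 (KO) and 14.42 ± 0.17 (WT; SD, n = 3), with a difference of 0.01 (SE 0.20, limma adjusted p = 0.99988). The other Ogn probe set ran between 3572 and 8848 across KO lenses and between 5736 and 8480 across WT lenses, with a difference of -0.16 (SE 0.33). In 2L the signal of the brighter set was 17412 where the highest signal on that array was 28328.

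Biglycan, the closest relative of decorin, had 3 probe sets that did not share a sign. At the brightest Bgn set the signals were 422 (1L), 748 (1R), 619 (4L) and 867 (7L) in KO and 460 (2L), 845 (5L) and 815 (6L) in WT lenses. Lenses 1L and 2L were low and the groups overlapped, with a log2 difference of -0.03 (SE 0.31, limma adjusted p = 0.99988). The remaining Bgn differences were -0.39 (SE 0.32) at 1416405_at and 0.45 (SE 0.50) at 1437889_x_at.

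Asporin, a relative of decorin that binds TGF-beta and collagen, exceeded the background gauge in 4 of 7 lenses at its brighter probe set. The signals of Aspn there were 27.9 (1L), 210 (1R), 1.5 (4L) and 217 (7L) in KO and 63.0 (2L), 78.6 (5L) and 31.4 (6L) in WT lenses. Lenses 1R and 7L lay above the WT range and 1L and 4L below it. The difference was -0.02 (SE 0.80, limma adjusted p = 0.99988) on the log2 scale, and the left and right lens of animal 1 differed 5.08-fold.

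**Figure D3:**
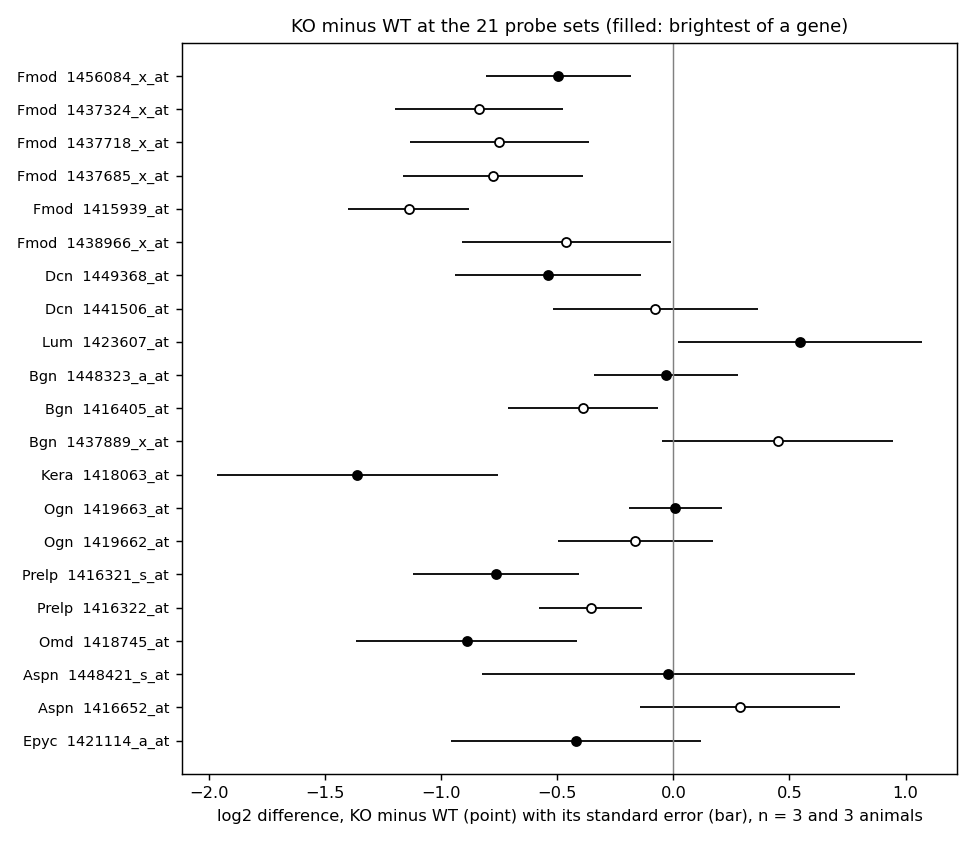
Log2 difference, KO minus WT, at the 21 probe sets, with its standard error (bars, 3 animals in each group) and the brightest probe set of each gene filled. The 6 Fmod sets lie at -1.14 to -0.46, Kera at -1.36 with a wide bar, and the 3 Bgn sets on both sides of 0.

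At the brightest probe set of each gene, 7 of the 9 genes other than Fmod had lower means in KO, where 54.4% of all 18193 named genes did. Their median log2 difference was -0.42, against -0.03 over the 18193. With Fmod, whose lower KO values chose the family, the count was 8 of 10 and the median -0.46, and nothing is read from Fmod's part in them. Of the 9 genes other than Fmod, 0 passed an adjusted p of 0.05 in limma, with an adjusted p of 0.99988 at each of their 15 probe sets, and 1 (Kera) had an unadjusted p under 0.05. For all named genes that share was 4.07%. The count of lower genes depended on single animals, with 5 of 10 lower without KO animal 4, 10 of 10 without KO animal 7, and 7 of 10 without WT animal 2. The median was -0.17 without KO animal 4, -0.69 without KO animal 7, -0.26 without WT animal 5 and -0.58 without WT animal 2. These counts and medians without single animals include Fmod and were not worked out for the 9 other genes as a set.

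**Figure D4:**
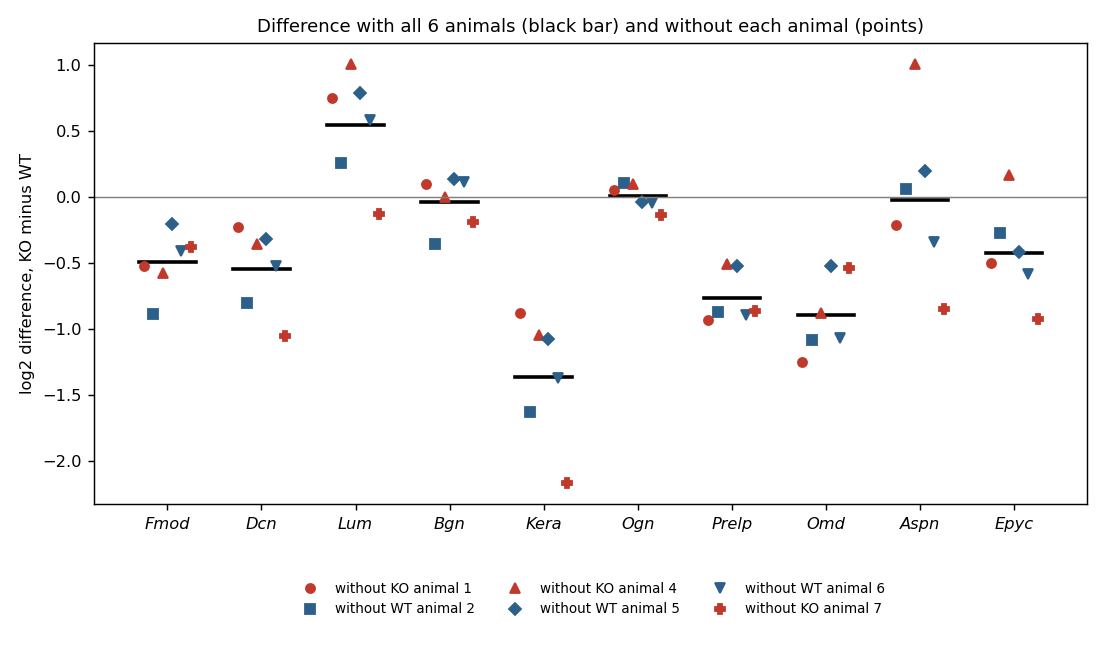
Log2 difference, KO minus WT, at the brightest probe set of each gene with all 6 animals (black bars) and without each animal in turn (points). Kera moves from -1.36 to -2.17 and Lum from 0.55 to -0.13 without KO animal 7, while Fmod moves to -0.89 without WT animal 2 and to -0.20 without WT animal 5.

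The spread within 1 animal was as wide as many of these differences. Lens 1R exceeded 1L for 8 of the 10 genes, by 2.73-fold for Lum, 2.27-fold for Kera and 1.57-fold for Ogn. The exceptions at the brightest probe sets were Fmod, where 1R was at 0.962 of 1L on the normalized scale, and Prelp, where it was at 0.595. At 1437324_x_at, 1437718_x_at, 1437685_x_at and 1438966_x_at of Fmod, 1R exceeded 1L by 1.15-fold to 1.36-fold. At 1415939_at it was at 0.715 of 1L. At the weaker Prelp probe set, under the background gauge, 1R exceeded 1L by 1.27-fold. The median absolute log2 difference between 1L and 1R was 0.83 over the 10 genes and 0.42 over all named genes. In WT, 5L was the highest lens for 8 of the 10 genes. In KO, 7L was the highest for 6 by deposited signal and for 7, with Ogn, by normalized level.

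Genes whose profile over the 6 animals came closest to that of 1456084_x_at, the brightest Fmod probe set, were searched among other named genes. The search covered 24382 probe sets whose mean signal over the 7 lenses was above the background gauge. Likeness was the root mean square difference of log2 levels, each profile centred on its own mean. The closest 5 were Ppcdc, a coenzyme A synthesis enzyme, at 0.089, Meis3, a homeobox factor, at 0.101, Nfic, a nuclear factor I, at 0.103, Scd3, a desaturase, at 0.107 and Eaf2, an elongation-associated factor, at 0.124. The median over all candidates was 0.567. For the closest of them, Ppcdc, the signals were 85.0 (1L), 114 (1R), 108 (4L) and 78.5 (7L) in KO and 63.0 (2L), 170 (5L) and 128 (6L) in WT. Its order, with 5L highest and 2L lowest as for that Fmod probe set, follows from how it was picked. With 24382 probe sets searched over only 6 animals, some close profiles come from the search alone, so nothing is read from the likeness. The eyes of animal 1 were averaged in these profiles. They differed widely for Nfic, at 321 (1L) and 79.9 (1R), and for Scd3, at 32.9 (1L) and 145 (1R). Eaf2 was under the gauge in 1R (31.5), 2L (26.6) and 7L (28.3). The other Fmod probe sets lay at 0.194 to 0.471, Bgn at 0.386 and Aspn, the least alike of the family, at 1.33.

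Further leucine-rich repeat proteoglycans were measured for 8 of 10 listed genes, 3 lower and 5 higher in KO, and 0 passed in limma (lowest adjusted p 0.99988). Chondroadherin (Chad), which binds collagen and integrins, had signals of 14.6 (1L), 44.7 (1R), 27.6 (4L) and 57.5 (7L) in KO and 25.0 (2L), 276 (5L) and 275 (6L) in WT lenses. Lens 2L lay among the KO lenses and 5L and 6L above them, and the log2 difference was -1.69 (SE 0.70, unadjusted p = 0.0372 in limma). Only 7L, 5L and 6L exceeded the background gauge, so this difference sets values mostly at background against 5L and 6L. Opticin (Optc), which ciliary epithelium secretes into the vitreous and whose gene lies beside Prelp, differed by 0.97 (SE 0.58). Podocan (Podn), a collagen-binding member of a more distant class, differed by 0.48 (SE 0.23), and Nepn was at background in all lenses.

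The collagens that these proteoglycans bind were measured for 14 of 14 genes, 8 lower and 6 higher in KO (median log2 difference -0.20), with 0 past the threshold (limma). Col1a2, a chain of type I collagen, had signals of 8556 (1L), 10720 (1R), 9946 (4L) and 7296 (7L) in KO and 7666 (2L), 16711 (5L) and 13431 (6L) in WT lenses. Again 5L and 6L were highest and 2L lay among the KO lenses, with a difference of -0.43 (SE 0.22). Col11a1, a chain of type XI collagen, differed by -0.75 (SE 0.42) and Col14a1, a fibril-associated collagen, by 0.61 (SE 0.50).

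Of 8 measured collagen cross-linking enzymes, 5 were lower and 3 higher, with 0 past the threshold. Tgm2, a transglutaminase, was the gene of this list with the smallest p and differed by 1.27 (SE 0.24, limma adjusted p = 0.918), and Lox, the lysyl oxidase, by -0.78 (SE 0.42). Of 31 measured enzymes and transporters for the sulfated chains, 19 were lower and 12 higher (median -0.10), again with 0 past the threshold. B3gnt2, which extends the N-acetyllactosamine backbone, differed by -0.71 (SE 0.33), Chst11, a chondroitin sulfotransferase, by 0.39 (SE 0.23) and Csgalnact1, which starts chondroitin chains, by 0.76 (SE 0.45).

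Among 13 proteases and their enhancers that process or cut these proteoglycans, 3 were lower and 10 higher in KO, with a median of 0.32 and 0 past the threshold (limma). Adamts4, an aggrecanase that also cuts fibromodulin and biglycan, had signals of 1893 (1L), 2429 (1R), 1695 (4L) and 3326 (7L) in KO and 1490 (2L), 1446 (5L) and 1330 (6L) in WT lenses. The lowest KO lens exceeded the highest WT lens, with a difference of 0.72 (SE 0.25, unadjusted p = 0.0170, adjusted p = 0.99988 in limma). That order of lenses also held for Tgm2, Chst11, Bmp2 and Tll1 of these lists. Its share over all probe sets was not counted, so nothing is read from it. Pcolce, an enhancer of procollagen cleavage, differed by 0.42 (SE 0.21), and Tll1 was at background in all lenses. Of 14 growth factors and receptors that bind these proteoglycans, 10 were lower and 4 higher (median -0.05), with 0 past the threshold, among them Tgfb3 at -0.44 (SE 0.26) and Bmp2 at 0.62 (SE 0.35).

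Markers of tissue next to the lens gave signal in every lens. Of 6 corneal and surface epithelium genes, 5 had lower KO means (median log2 difference -1.38), and their summed signal spanned 6990 to 18726 across KO lenses and 10514 to 22132 across WT lenses. Krt12, the corneal keratin, had signals of 4671 (1L), 10667 (1R), 5970 (4L) and 530 (7L) in KO and 11505 (2L), 3447 (5L) and 8198 (6L) in WT. The sum was lowest in 7L among KO and highest in 2L among WT lenses. In 7L, Aldh3a1 made up 5932 of the 6990. It was the 1 gene of this list without a lower KO mean, and it is also on the fibroblast and keratocyte list. Upk1b, a uroplakin of surface epithelia, differed by -1.37 (SE 0.28, limma adjusted p = 0.918). No KO lens reached the lowest WT lens, an order that 1.97% of all 45037 probe sets had.

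For 13 fibroblast and keratocyte genes, 5 were lower and 8 higher in KO (median 0.10). Their sum spanned 60612 to 70147 across KO lenses and 49910 to 72547 across WT lenses. Ptgds, at 18364 to 30585, was its largest part in every lens, so the sum mostly follows a few bright genes. By deposited signal the sum was lowest in 2L and highest in 5L, and by normalized level it was lowest in 4L and highest in 1R. Thy1, a fibroblast surface protein that other cells also carry, differed by 0.83 (SE 0.29) and Pdgfrb, a receptor of mural cells and fibroblasts, by 0.42 (SE 0.22). The sum of 7 genes of pigmented ciliary body and iris was 15687 to 45005 in KO, highest in 7L, and 9660 to 26744 in WT. That of 6 non-pigmented ciliary epithelium genes was 2439 to 3988 and 2287 to 3291. That of 6 skeletal muscle genes was 9143 to 36586 in KO and 7577 to 51174 in WT, highest in 2L. The sum spanned 1483 to 2308 across KO lenses and 720 to 1284 across WT lenses for 8 macrophage and leukocyte genes, of which Aif1 was at background in all lenses. It was 688 to 1016 and 387 to 686 for 7 endothelial and blood genes, with Pecam1 and Hba-a1 at background, and 43299 to 67061 and 37773 to 68928 for 7 retinal genes. The part of any of these tissues in the values of the 10 genes was not tested.

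**Figure D5:**
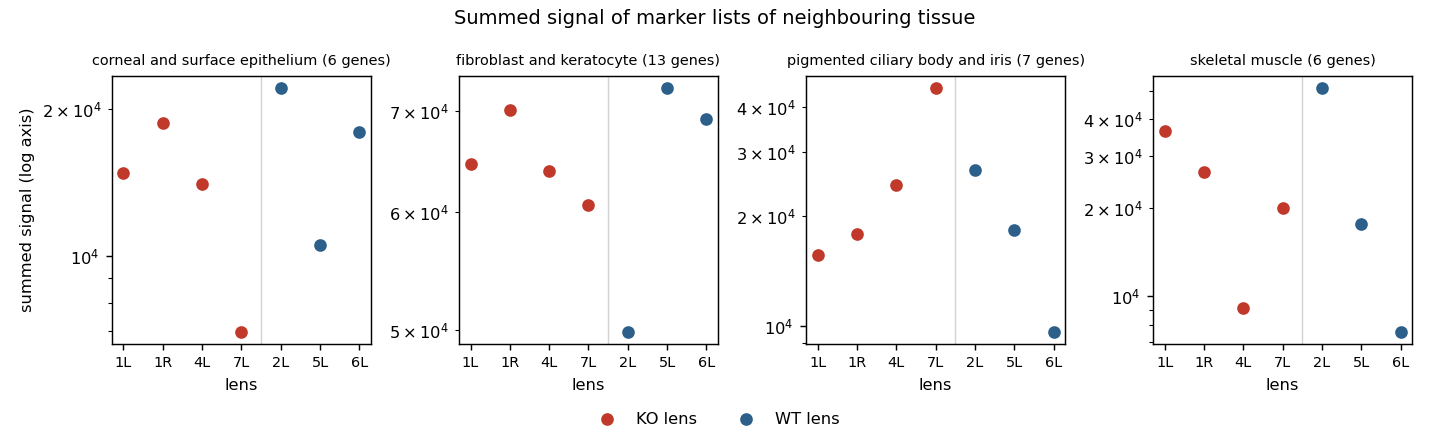
Summed deposited signal (log axis) of 4 marker lists in each lens, KO in red and WT in blue. Surface epithelium is lowest in 7L, the fibroblast and keratocyte sum lowest in 2L and highest in 5L on this scale, pigmented genes highest in 7L and muscle genes highest in 2L.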

How the data were processed

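The deposited values are linear intensity values, 1 per probe set and array, and no label or header names the authors' summary software or background correction. Tested on the table, arrays share a mean trimmed by 2% at each end. 64 control probe sets were left out. Values were taken as log2(signal + 16), quantile normalized and, for animal 1, averaged over both lenses. The pseudocount shrinks the log2 differences of weak probe sets. The KO minus WT difference was fitted in limma 3.58.1 under R 4.3.3 (lmFit, then eBayes with trend, two-sided), with Benjamini-Hochberg adjustment over 45037 probe sets and a threshold of 0.05. The code was tested on simulated data. Amplification from the 3' end favours probe sets near it.

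Symbols came from the platform annotation, and 34945 probe sets had exactly 1. The brightest probe set by mean log2 level stood for a gene. The 10 genes and all lists were chosen with earlier results of these data known. All 10 were named, with up to 3 genes of each list by smallest p and marker genes as needed. Probe set levels were ranked to choose the brightest and summed over marker lists, and carry no meaning as relative RNA amounts. The number of arrays limits the precision. Animals are separate mice of 1 litter. Alternatives were other normalizations, pseudocounts, units of replication, filters, variance models, summaries over probe sets and leaving out each animal.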

Additional observations from a re-analysis of the deposited data

How the results depend on the processing

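No paired analysis was possible because KO and WT lenses share no replicate number. A random block for the animal was not run because its correlation could not be estimated with 1 animal measured in both eyes. Over all alternatives, 0 of the 9 genes other than Fmod and 0 genes of the pathway lists passed, also at an adjusted p of 0.1. Kera stayed below 0 (-2.17 to -0.88), as did Dcn, Prelp, Omd and the family median with Fmod (-0.69 to -0.17). The brightest Fmod probe set ran from -0.89 to -0.20 and 1415939_at from -1.33 to -0.85. At 1438966_x_at the sign turned, to 0.06, without WT animal 5. Fmod was chosen for lower KO values on these same lenses, so nothing is read from its sign. The count of lower genes, of 10 with Fmod, was 5 to 10 when leaving out 1 animal, 5 being without KO animal 4. Since Fmod is in this count and in the family median, neither shows how steady the other 9 genes were as a set. Signs turned for Lum, Epyc, Bgn, Ogn and Aspn. With the 7 lenses as independent samples Ogn was at -0.015 and Aspn at 0.080. With the left lens of animal 1 only Ogn was at -0.096, and with the right lens only Bgn was at 0.107 and Aspn at 0.370. Ogn was at -0.016 with median centring and -0.015 with array weights, and Aspn at 0.066 with the signals as deposited and 0.194 with a pseudocount of 64. With the mean of all probe sets Bgn was at 0.0092, Ogn at -0.078 and Aspn at 0.132. Leaving out 1 animal gave -0.13 to 1.01 for Lum, -0.92 to 0.17 for Epyc, -0.35 to 0.14 for Bgn, -0.13 to 0.11 for Ogn and -0.85 to 1.01 for Aspn. The cause was not tested. Signal over background limits Omd, Aspn, Epyc and the weaker Prelp and Dcn probe sets.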
